A study of Mus musculus with 24 samples.

Results

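Insulin and IGF receptor signaling genes were described in MIN6 cells as a fixed list of 9 genes: the receptors Insr and Igf1r, the adaptors Irs1 and Irs2, the PI3K subunit Pik3r1, the kinases Akt1 and Akt2, and the transcription factors Foxo1 and Foxo3. They were chosen by gene symbol, and all 9 were found among the 17696 genes of the count table, in each of 24 libraries. MIN6 cells come from a mouse insulinoma and keep many features of β cells. RNA-seq was performed on 3 stable lentiviral lines, with 4 libraries a group: Scr (scrambled miRZip-000), ZIP (miRZip-146a, an anti-miR to miR-146a-5p) and OE (shMIMIC vector for miR-146a-5p), and each of these lines after cytokine treatment (ZIP+Cy, OE+Cy and Scr+Cy). Treatment lasted 24 h, with IL-1β at 5 ng/ml, TNFα at 10 ng/ml and IFNγ at 100.0 ng/ml. All lines had been selected with puromycin and expanded from single clones; Scr and ZIP shared a vector backbone with copGFP, whereas OE carried another with Turbo RFP. The effect of the microRNA therefore cannot be told apart from that of the clone, nor, for OE, from that of the backbone. Mature miR-146a-5p was not analyzed here, so the line labels were not checked against it.

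Insulin and IGF-1 bind receptor tyrosine kinases of the same family, which phosphorylate insulin receptor substrate (IRS) adaptors. These recruit phosphoinositide 3-kinase (PI3K), whose lipid product activates AKT kinases, and AKT keeps FOXO transcription factors out of the nucleus. In β cells, this pathway is known for its part in growth, survival and the maintenance of β cell identity, and Irs2 in particular is required for the growth of β cell mass in mice.

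The sequence that OE expresses, and that the ZIP vector opposes, is shown here with its matches in the list, because a seed match is how microRNAs usually recognize mRNAs. Capitals mark the seed (bases 2 to 8) in the microRNA and its complement, AGTTCTC, in the mRNAs. The mature sequence came from RefSeq (GRCm38.p6, chr11:43374435-43374456, minus strand), and the matches were found on the same genome in the longest GENCODE M21 3′ UTR of each gene.
mmu-miR-146a-5p: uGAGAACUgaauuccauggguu
Akt2 (chr7:27639231-27639253, plus strand): tggaaatgAGTTCTCctggtttt
Foxo3 (chr10:42184725-42184747, minus strand): cccgcttgAGTTCTCgccattgc

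Of the 9 genes, 2 (Akt2 and Foxo3) held this match, which lay 1098 bases after the stop codon in Akt2 and 1592 bases after it in Foxo3. Neither match was followed by an A. For comparison, 11.1% of 20979 genes held at least 1 such match in their longest 3′ UTR. The shorter match to bases 2 to 7, GTTCTC, which also lies within the longer one, was found in 5 of the 9 genes (Igf1r, Pik3r1, Akt2, Foxo1 and Foxo3) and in 29.5% of all genes. Insr, Irs1, Irs2 and Akt1 held neither. The 3′ UTRs of all but Akt1 (877 bases) were longer than the median of all genes, 954 bases, and reached 7267 bases in Igf1r. Longer sequences hold more matches by chance, and the shares of all genes were not matched for length. These shares therefore do not show that the list is enriched in matches. A match describes the letters only and does not show that the microRNA binds there.

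Depth ranged from 26657792 to 37168232 assigned reads per library (median 30701023), and the lowest count of any of the 9 genes was 176 reads, for Igf1r in an Scr library. All 10 of the β cell markers checked were detected, with a summed level of 18960 to 25258 CPM (reads scaled to library size, here after TMM scaling) in Scr and of 40297 to 43970 CPM in OE. Most of this sum came from Ins2, Iapp and Ins1, and the means of 4 other markers on the list were lower in OE than in Scr: Pdx1 (627 against 824 CPM), Nkx6-1 (167 against 254 CPM), G6pc2 (1895 against 3184 CPM) and Mafa (716 against 1050.0 CPM). Slc30a8 (382 against 21.9 CPM) and Slc2a2 (92.7 against 24.0 CPM) were higher in OE, and Neurod1 was similar (206 against 202 CPM). The summed level of the 3 acinar and duct genes in the table (of 5 listed) was at most 0.0619 CPM in Scr and 12.4 to 17.4 CPM in OE, nearly all of it from Krt19, a duct keratin that had 0 reads in all Scr and ZIP libraries. The 5 genes of other islet cells (of 7 listed) summed to 246 to 369 CPM in Scr, mostly Gcg, glucagon, and to 48.8 to 57.9 CPM in OE, where Gcg had a mean of 41.4 CPM and Ppy, pancreatic polypeptide, a mean of 8.89 CPM, against 0 reads in Scr and ZIP. The part of these markers in the differences of OE was not tested, and in bulk samples fewer cells of a type and less RNA per cell cannot be told apart. In ZIP replicate 1 and Scr+Cy replicate 1, the summed level of 5 fibroblast genes was 44.4 and 54.8 CPM, against at most 17.1 CPM in each of the other 22 libraries. Calls of the 9 genes and counts of the pathway list that changed without these 2 libraries are given with and without them. The labels do not say whether libraries with different replicate numbers came from separate cultures, so p values measure the spread between these libraries, which may be technical.

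Levels of different genes were compared as CPM per kb of exon. In Scr, the order from high to low was Akt2 (64.8 ± 4.33, SD, n = 4), Akt1 (57.9 ± 3.05), Pik3r1 (39.5 ± 1.34), Irs2 (13.7 ± 0.548), Foxo3 (12.3 ± 0.572), Insr (12.3 ± 0.556), Foxo1 (5.82 ± 0.212), Irs1 (4.37 ± 0.0242) and Igf1r (0.660 ± 0.179 CPM per kb). Neighbors in this order overlapped between libraries for Akt2 and Akt1, for Irs2 and Foxo3, and for Foxo3 and Insr. Igf1r, the receptor for IGF-1 and IGF-2, was thus the lowest of the 9 genes in Scr, as it was in all groups of the Scr and ZIP lines. In OE, it was the third highest, at 37.7 ± 3.43 CPM per kb, below Akt1 (46.1 ± 1.36) and Pik3r1 (43.1 ± 1.82), whereas Akt2 was the fifth, at 18.9 ± 0.348 CPM per kb. In OE+Cy, Igf1r was the second highest, and its libraries overlapped those of Pik3r1 at the next place.

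**Figure D1:**
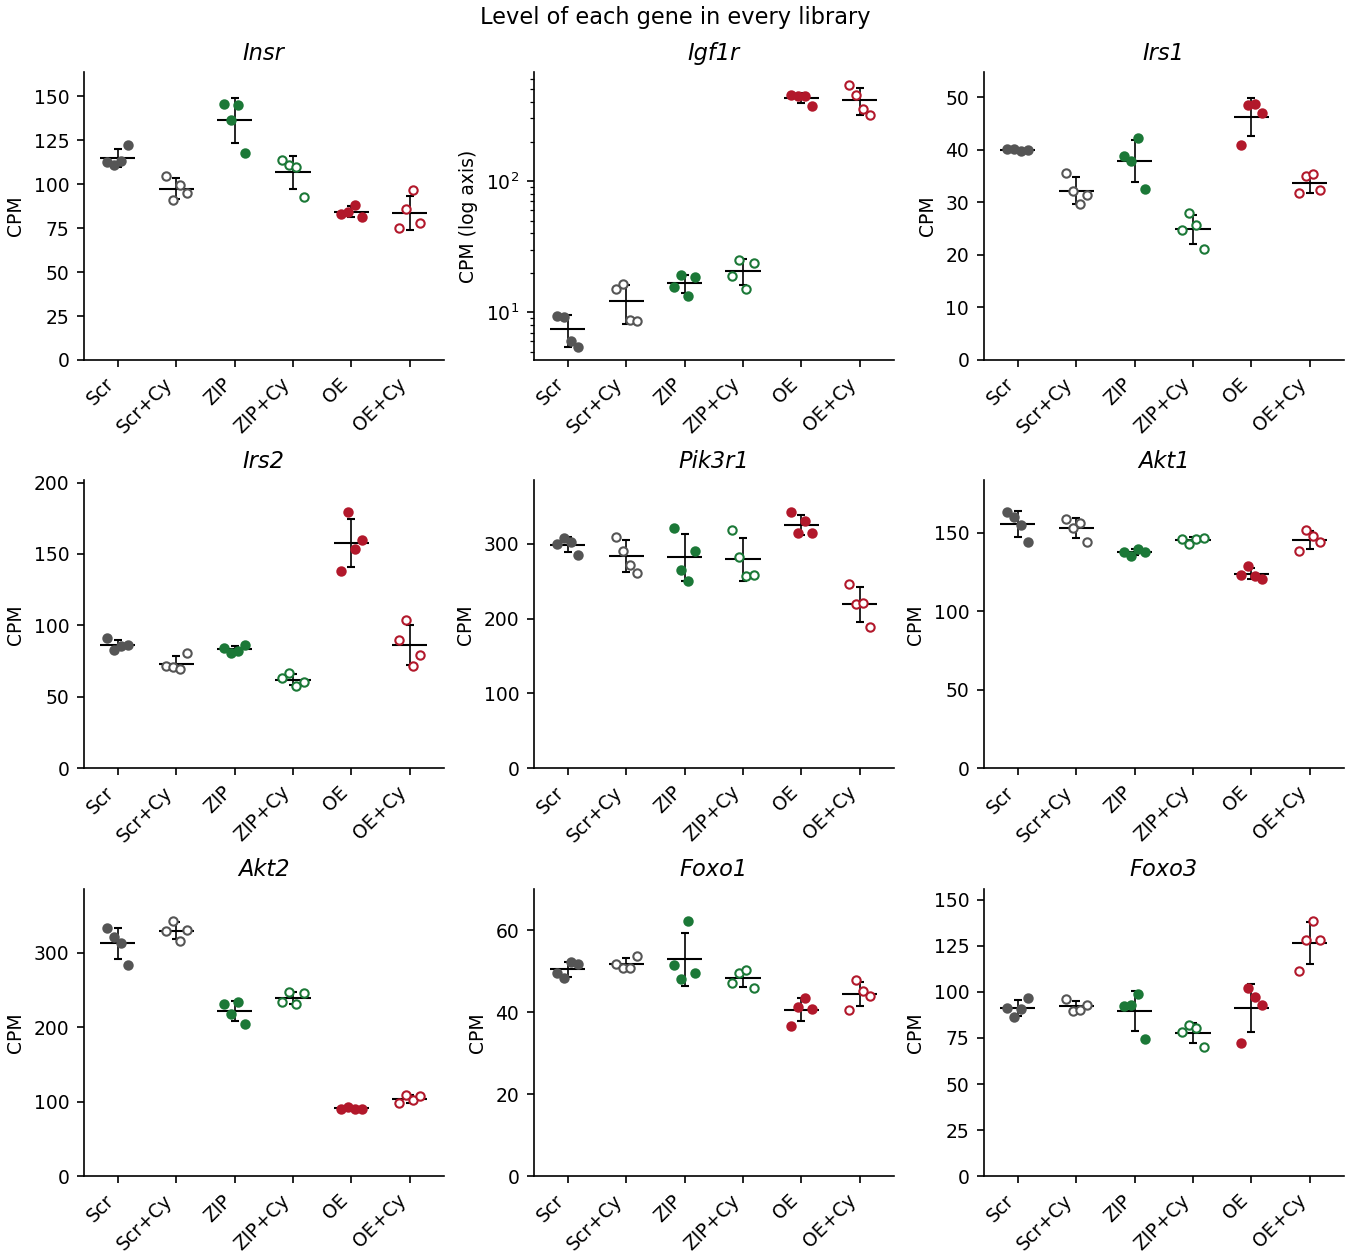
CPM of each of the 9 genes (y axis; log axis for Igf1r) in each library of the 6 groups (x axis; filled points without cytokines, open points with cytokines; black line and bar, mean ± SD of 4 libraries). Igf1r lies between 317 and 537 CPM in the 8 OE and OE+Cy libraries and between 5.45 and 25.2 CPM in the other 16, and Akt2 is lowest in the same 8 libraries.

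The first comparison addressed how the 9 genes differ when miR-146a-5p is overexpressed. In OE, Igf1r was 56.8-fold higher than in Scr, Irs2 1.83-fold higher and Akt2 3.43-fold lower. A gene was called when its fold change was at least 1.5 at an unadjusted p under 0.05. By this rule, 3 of 9 genes were called (2 higher and 1 lower), or, with an adjusted p under 0.05 and no fold limit, 7 of 9 (3 higher and 4 lower). Of all 17696 genes, 25.7% were called and 50.1% passed at the adjusted p. The share of calls among the 9 genes is therefore near that of all genes, and what stands out is the size of the rise of Igf1r.

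Igf1r, a receptor tyrosine kinase, was at 9.31, 9.26, 6.09 and 5.45 CPM in the 4 Scr libraries (7.53 ± 2.04 CPM, SD, n = 4). In OE it was at 455, 447, 446 and 371.5 CPM (429.9 ± 39.1 CPM). The lowest OE library was thus far above the highest Scr library. The log2 fold change was 5.83 (SE 0.243, adjusted p = 1.05e-15), and 115 of 17696 genes (0.650%) had a larger one. Insr, which shares ligands and adaptors with Igf1r, differed the other way. It was at 113, 111, 113 and 122.5 CPM in Scr and at 83.1, 84.4, 88.5 and 81.1 CPM in OE, without overlap (log2 fold change −0.45, SE 0.0779, adjusted p = 3.61e-05).

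Irs2, the adaptor known for its part in β cell growth, was at 90.8, 82.4, 85.8 and 86.2 CPM in Scr and at 138, 179, 154 and 160.1 CPM in OE. Every OE library was above every Scr library (log2 fold change 0.87, SE 0.0870, adjusted p = 8.87e-09), and 2241 of 17696 genes (12.66%) had a larger rise. Irs1, the other adaptor, was less different, at 40.0 ± 0.221 CPM in Scr and 46.3 ± 3.61 CPM in OE (log2 fold change 0.21, SE 0.0796, adjusted p = 0.0301). Its libraries did not overlap, but the adjusted p rose to as much as 0.0841 and passed 0.05 when Scr replicate 1, 2 or 4 or OE replicate 2, 3 or 4 was left out. Pik3r1, the p85α regulatory subunit of PI3K, did not pass the test, at 299 ± 10.1 CPM in Scr and 325 ± 13.8 CPM in OE (log2 fold change 0.12, SE 0.0814, adjusted p = 0.222).

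Akt2, the AKT isoform known for its part in the metabolic actions of insulin, was at 333, 321, 313 and 284 CPM in Scr. In OE, it was at 90.1, 93.6, 90.3 and 90.2 CPM. The groups were far apart, with little spread in OE (log2 fold change −1.78, SE 0.0541, adjusted p = 4.3e-18), and 1359 of 17696 genes (7.68%) had a larger fall. Akt1, the isoform known for its part in growth and survival, was also lower in OE, but less so, at 156 ± 8.21 CPM in Scr and 124 ± 3.65 CPM in OE (log2 fold change −0.33, SE 0.0434, adjusted p = 7.3e-07).

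Foxo1, which AKT phosphorylates and which is known to oppose Pdx1 in β cells, was lower in OE, at 50.5 ± 1.84 CPM in Scr and 40.6 ± 2.82 CPM in OE (log2 fold change −0.31, SE 0.0685, adjusted p = 0.000471). Foxo3, a second FOXO factor, was at 91.2 ± 4.24 CPM in Scr and 91.1 ± 13.0 CPM in OE, with overlapping libraries and a log2 fold change of −0.00 (SE 0.0899, adjusted p = 1.0). Thus, of the 2 genes with the seed match shown above, Akt2 fell and Foxo3 did not differ detectably. Of the genes with only the shorter match, Igf1r was higher in OE, Foxo1 was lower and Pik3r1 did not pass the test. Of the genes without either match, Irs2 and Irs1 were higher in OE, and Insr and Akt1 were lower.

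The second comparison addressed the anti-miR line. In ZIP, Igf1r was 2.2-fold higher than in Scr and Akt2 1.41-fold lower, the same directions as in OE, while Insr was 1.19-fold higher. Only Igf1r was called (1 of 9 genes, against 14.9% of all genes), and 4 of 9 genes passed at an adjusted p under 0.05 (2 higher and 2 lower, against 28.3% of all genes). ZIP and OE were compared with the same 4 Scr libraries, so the directions of both comparisons are not independent.

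Igf1r was at 15.5, 19.2, 13.4 and 18.7 CPM in ZIP, all above the highest Scr library, at 9.31 CPM (log2 fold change 1.14, SE 0.227, adjusted p = 0.000396). The value was 1.17 when ZIP replicate 1 and Scr+Cy replicate 1 were left out. Akt2 was at 232, 218, 234 and 205 CPM in ZIP, all below the lowest Scr library, at 284 CPM (log2 fold change −0.49, SE 0.0524, adjusted p = 7.83e-08). This fall was in the same direction as in OE.

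Insr was at 145.5, 137, 145.2 and 118 CPM in ZIP, and the lowest of these libraries overlapped Scr (log2 fold change 0.25, SE 0.0775, adjusted p = 0.0186). The adjusted p rose to as much as 0.0647 when Scr replicate 2, ZIP replicate 1 or ZIP replicate 3 was left out. Akt1 was lower in every ZIP library, at 135 to 139.7 CPM against 144.5 to 163 CPM in Scr (log2 fold change −0.18, SE 0.0433, adjusted p = 0.00287). Irs1, Irs2, Pik3r1, Foxo1 and Foxo3 did not pass the test in ZIP. Their log2 fold changes lay between −0.08 and 0.07, and their libraries overlapped those of Scr.

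**Figure D2:**
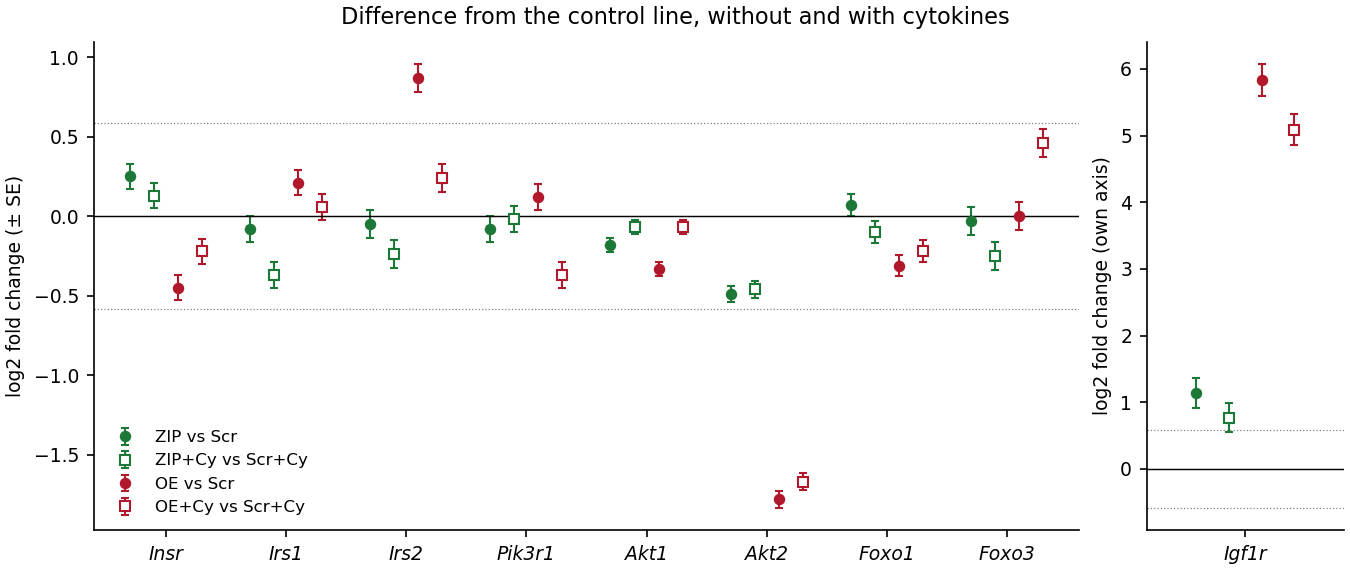
Log2 fold change of each gene (y axis, ± SE of the edgeR fit) in ZIP (green) and OE (red) against Scr, without cytokines (filled circles) and with cytokines in both groups (open squares), with Igf1r on its own axis and dotted lines at a fold change of 1.5. Igf1r is above the dotted line in all 4 comparisons, up to 5.83 in OE, and Akt2 is below 0 in all 4, down to −1.78 in OE.

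Because both receptors and both kinases differed unequally, their ratios were computed in each library from CPM per kb. In Scr, Igf1r was at 0.0542 ± 0.0163 of the level of Insr (SD, n = 4), that is, Insr was 18.5 times higher on average. In OE, Igf1r was at 4.18 ± 0.320 times the level of Insr, and all 4 libraries were between 3.76 and 4.49. The ratio was 0.102 ± 0.0249 in ZIP. With cytokines, it was 0.103 ± 0.0364 in the Scr line, 0.162 ± 0.0454 in the ZIP line and 4.13 ± 1.28 in the OE line. Between Insr and Igf1r, the predominant mRNA was therefore Insr in the Scr and ZIP lines and Igf1r in the OE line, with or without cytokines.

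Akt2 was at 1.12 ± 0.0179 times the level of Akt1 in Scr, at 0.899 ± 0.0505 in ZIP and at 0.409 ± 0.00524 in OE. None of the libraries of these 3 groups overlapped between groups. With cytokines, the ratios were 1.20 ± 0.0735, 0.916 ± 0.0384 and 0.398 ± 0.0128. The ratio of Irs2 to Irs1 was 3.12 ± 0.125 in Scr, 3.22 ± 0.441 in ZIP and 4.92 ± 0.320 in OE, and it was 3.71 ± 0.615 in OE+Cy. The ratio of Foxo3 to Foxo1 was highest in OE+Cy, at 3.33 ± 0.204, against 2.11 ± 0.0679 in Scr and 2.62 ± 0.241 in OE.

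**Figure D3:**
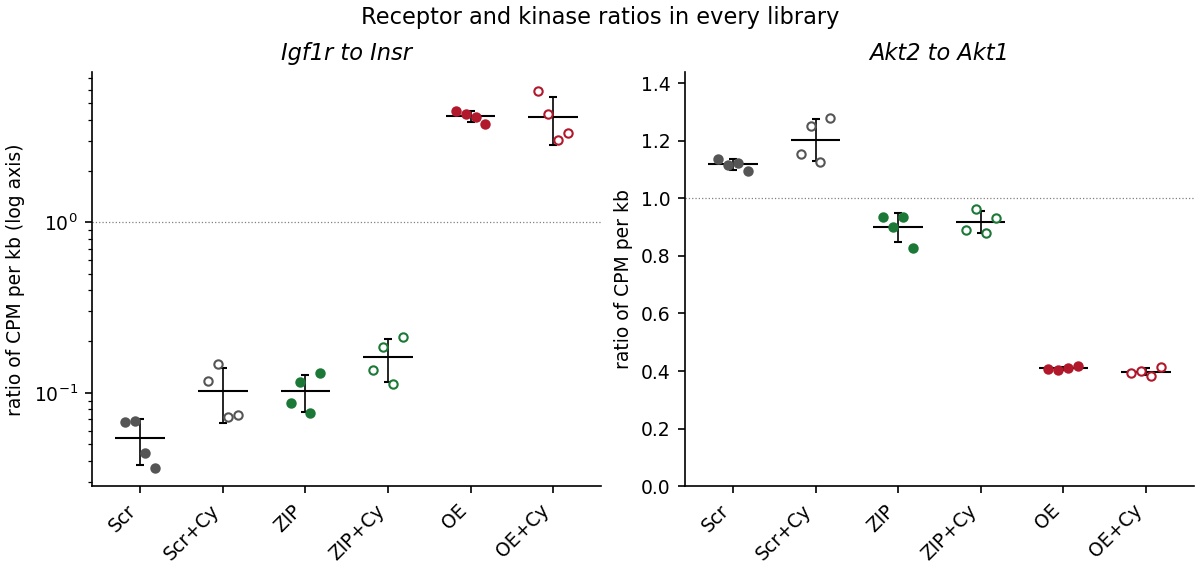
Ratio of Igf1r to Insr (left, log axis) and of Akt2 to Akt1 (right) in each library, from CPM per kb (filled points without cytokines, open points with cytokines; black line and bar, mean ± SD of 4 libraries; dotted line, equal levels). Igf1r exceeds Insr only in the 8 OE and OE+Cy libraries, and Akt2 exceeds Akt1 only in the 8 Scr and Scr+Cy libraries.

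The genes that lie around each of the 9 genes were examined to see whether a change was shared by the region. Igf1r lies on chr7:67952257-68233667 (mm10, plus strand), and 27 genes with a mean of at least 1 CPM started within 5 Mb of it. In OE, their median log2 fold change was −0.22, and the highest was 0.35, against 5.83 for Igf1r. In ZIP, their median was −0.02 and their highest value 0.87, against 1.14. Thus, in OE no other expressed gene within 5 Mb rose as Igf1r did, whereas in ZIP the highest value around it was nearer its own. Akt2 lies on chr7:27591552-27640826 (plus strand) with 158 such genes around it. Their median log2 fold change was 0.02 in OE and −0.05 in ZIP, against −1.78 and −0.49 for Akt2. Some genes around Akt2 fell further than it did, with a lowest value of −2.95 in OE and −2.32 in ZIP. For Irs2 (chr8:10984681-11008929, minus strand), the median of 36 genes was 0.05 in OE and the highest 0.91, against 0.87 for Irs2.

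**Figure D4:**
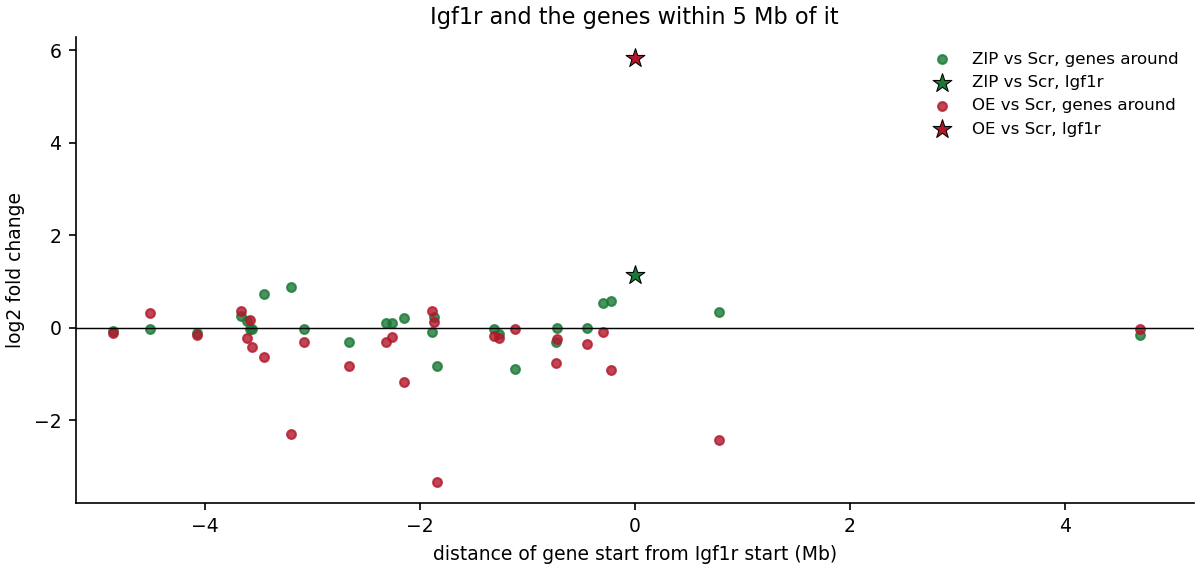
Log2 fold change (y axis) of Igf1r (stars) and of the 27 genes with a mean of at least 1 CPM within 5 Mb (points), by distance of the gene start from the start of Igf1r (x axis, Mb), in OE (red) and ZIP (green) against Scr. Igf1r stands at 5.83 in OE, and all genes around it lie between −3.33 and 0.35.

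The next comparisons addressed the response to cytokines within each line. Of the adaptors, Irs1 fell in all 3 lines and Irs2 fell in ZIP and OE, and the fall of Irs2 in OE was the largest of the 9 genes in the 3 lines, at 1.83-fold. Insr fell in Scr and ZIP, and Pik3r1 fell in OE alone among the tested responses. Foxo3, Akt1 and Akt2 rose in OE. In Scr+Cy, 1 of 9 genes was called (10.6% of all genes) and 3 passed at the adjusted p (1 higher and 2 lower, against 17.8% of all genes). In ZIP+Cy, 1 was called (12.5%) and 3 passed, all lower (26.4%). In OE+Cy, 1 was called (21% of all genes) and 6 passed, 3 higher and 3 lower (44.6%).

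Irs1 was within 39.7 to 40.2 CPM in Scr and at 35.7, 32.1, 29.6 and 31.4 CPM in Scr+Cy. All Scr+Cy libraries were lower (log2 fold change −0.31, SE 0.0805, adjusted p = 0.00744). In the ZIP line, Irs1 was at 38.8, 38.0, 42.3 and 32.5 CPM without cytokines and at 24.7, 27.9, 25.7 and 21.2 CPM with them. This was the only called change in that line, at 1.52-fold lower (log2 fold change −0.61, SE 0.0820, adjusted p = 3.55e-06). Without ZIP replicate 3 or ZIP+Cy replicate 4, the log2 fold change was −0.56 or −0.54, below the fold limit, with the same direction. In OE, Irs1 was at 41.0, 48.5, 48.7 and 47.0 CPM, and in OE+Cy at 31.8, 35.0, 35.4 and 32.3 CPM (log2 fold change −0.46, SE 0.0802, adjusted p = 4.35e-05). The groups did not overlap in any of the 3 lines.

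Irs2 was at 71.6, 70.5, 69.6 and 80.9 CPM in Scr+Cy, below all Scr libraries (log2 fold change −0.24, SE 0.0873), but did not pass, with an adjusted p of 0.0614. With the replicate number as a block, used because libraries of the same number deviated together in these groups, the log2 fold change was the same and the adjusted p was 0.0349, and without Scr+Cy replicate 4 the adjusted p was 0.0341. In ZIP+Cy, Irs2 was at 63.2, 66.8, 57.5 and 60.2 CPM, against 80.7 to 86.4 CPM in ZIP (log2 fold change −0.43, SE 0.0880, adjusted p = 0.000656). In OE+Cy, Irs2 was at 89.9, 103.9, 71.4 and 79.4 CPM, against 138 to 179 CPM in OE. The called fall in OE (log2 fold change −0.87, SE 0.0871, adjusted p = 1.48e-08) brought the mean to 86.2 ± 14.1 CPM, which is close to the 86.3 ± 3.46 CPM of untreated Scr (log2 fold change of OE+Cy against Scr −0.00, SE 0.0870, adjusted p = 0.984).

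The promoters of the 2 adaptors that fell with cytokines are shown because both moved in the same direction. They are RefSeq windows of 250 bases before to 50 bases after the start (GRCm38.p6), written 5′ to 3′ on the strand of the gene, with matches to the GC box GGGCGG or its complement in capitals.
Irs1 (chr1:82291390-82291689, minus strand): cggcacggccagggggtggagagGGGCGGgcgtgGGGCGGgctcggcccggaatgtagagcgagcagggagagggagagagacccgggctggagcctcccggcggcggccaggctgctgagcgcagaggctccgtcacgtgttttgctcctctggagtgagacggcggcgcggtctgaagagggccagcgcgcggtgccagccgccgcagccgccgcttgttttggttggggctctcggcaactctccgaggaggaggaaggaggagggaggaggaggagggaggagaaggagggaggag
Irs2 (chr8:11008880-11009179, minus strand): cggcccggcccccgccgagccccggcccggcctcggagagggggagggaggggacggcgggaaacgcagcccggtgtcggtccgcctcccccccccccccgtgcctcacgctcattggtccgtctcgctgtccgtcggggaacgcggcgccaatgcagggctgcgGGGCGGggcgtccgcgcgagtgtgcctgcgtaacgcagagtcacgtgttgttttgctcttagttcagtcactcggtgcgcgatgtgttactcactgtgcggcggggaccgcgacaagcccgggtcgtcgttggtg

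The Irs1 window was 71.3% G or C with 2 GC boxes, and the Irs2 window was 72.0% G or C with 1; a GC box was found in 35.7% of 32851 windows of all genes. Both strands were also searched for motifs of factors that cytokines or AKT signaling act on: the STAT element TTCNNNGAA (8.3% of all windows), the FOXO element GTAAACA (3.6%), a κB element of NF-κB (0.2%) and an element of interferon regulatory factors (3.4%). None of these was found in the Irs1 and Irs2 windows, which says only that these letters are not there. Among the windows of the other genes, the first Akt2 window held 1 STAT element and the first Akt1 window 1 FOXO element. Insr had no window in the table used.

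Among the receptors, Insr fell in Scr+Cy to 105, 91.0, 99.5 and 94.9 CPM, all below Scr (log2 fold change −0.24, SE 0.0777, adjusted p = 0.0367). Leaving out Scr replicate 1, 3 or 4 or Scr+Cy replicate 2, 3 or 4 took the adjusted p above 0.05, to as much as 0.119. In ZIP+Cy, Insr was at 114, 111, 109.8 and 92.4 CPM, against 118 to 145.5 CPM in ZIP (log2 fold change −0.35, SE 0.0778, adjusted p = 0.00133). In OE, it was at 84.3 ± 3.10 CPM without and 83.9 ± 9.68 CPM with cytokines, with overlapping libraries (log2 fold change −0.01, SE 0.0781, adjusted p = 0.963).

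Igf1r was at 15.0, 16.4, 8.72 and 8.62 CPM in Scr+Cy, in the order of the replicate numbers, against 9.31, 9.26, 6.09 and 5.45 CPM in Scr. Each Scr+Cy library was above the Scr library of the same number, while the groups as a whole overlapped. The gene was called 1.61-fold higher (log2 fold change 0.69, SE 0.230, adjusted p = 0.0401). The call was lost without Scr replicate 4 (log2 fold change 0.56), Scr+Cy replicate 1 (0.57) or Scr+Cy replicate 2 (0.51), and without Scr replicate 3 the adjusted p also passed 0.05. Scr+Cy replicate 1 was the library with the highest fibroblast marker sum, and its part in this result was not tested. Without it and ZIP replicate 1, the log2 fold change was 0.55 and the gene was not called. In ZIP+Cy, Igf1r was at 18.9, 25.2, 15.1 and 23.9 CPM, each above the ZIP library of the same number, but it did not pass (log2 fold change 0.32, SE 0.213, adjusted p = 0.3). In OE+Cy, it was at 537, 451, 356 and 317 CPM, around the 371.5 to 455 CPM of OE (log2 fold change −0.05, SE 0.189, adjusted p = 0.864).

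Pik3r1, Akt1, Akt2, Foxo1 and Foxo3 did not pass the test with cytokines in Scr or in ZIP, where their log2 fold changes lay between −0.20 and 0.11. In OE, Pik3r1 fell from 342, 314, 331 and 314 CPM to 246, 219.8, 221 and 189 CPM. The fall of 1.49-fold was just under the fold limit (log2 fold change −0.57, SE 0.0818, adjusted p = 3.48e-06), and the gene was called, at −0.59 to −0.63, when OE replicate 4, OE+Cy replicate 1 or OE+Cy replicate 3 was left out. Foxo3 rose from 72.5, 102, 97.3 and 92.7 CPM to 111, 128, 139 and 128 CPM, without overlap (log2 fold change 0.47, SE 0.0898, adjusted p = 0.000124). Akt1 rose from 124 ± 3.65 to 146 ± 5.58 CPM (log2 fold change 0.23, SE 0.0434, adjusted p = 0.000103), and Akt2 from 91.0 ± 1.68 to 104 ± 5.00 CPM (0.19, SE 0.0530, adjusted p = 0.00467). Foxo1 did not pass in OE (log2 fold change 0.13, SE 0.0688, adjusted p = 0.132).

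**Figure D5:**
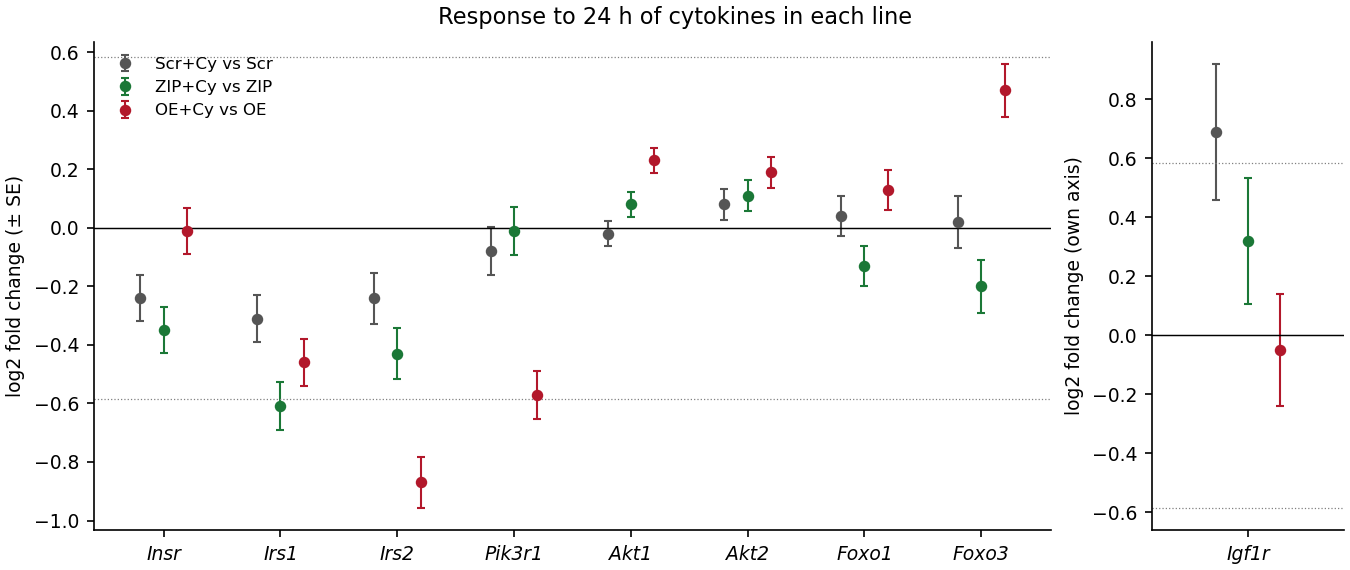
Log2 fold change with cytokines (y axis, ± SE of the edgeR fit) of each gene in the Scr (gray), ZIP (green) and OE (red) lines, with Igf1r on its own axis and dotted lines at a fold change of 1.5. Irs1 and Irs2 lie below 0 in all 3 lines, down to −0.87 for Irs2 in OE, and Foxo3 (0.47) and Pik3r1 (−0.57) stand apart in OE.

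Whether a response differed between lines was tested as an interaction with the response of Scr, at an adjusted p under 0.05. For OE, 4 of 9 genes passed, against 20% of all genes. The cytokine response of OE was lower than that of Scr for Irs2 (difference of log2 fold changes −0.63, SE 0.123, adjusted p = 0.000722) and Pik3r1 (−0.49, SE 0.115, adjusted p = 0.00353). It was higher for Foxo3 (0.46, SE 0.127, adjusted p = 0.0125) and Akt1 (0.26, SE 0.0613, adjusted p = 0.00412). For Igf1r, the difference was −0.74 (SE 0.298, adjusted p = 0.0865). With the replicate number as a block, it was −0.76 and passed (SE 0.225, adjusted p = 0.0163). It also passed when Scr+Cy replicate 3, Scr+Cy replicate 4 or OE+Cy replicate 1 was left out, with values of −0.86, −0.87 and −0.88. For Irs1, whose mean fell in all 3 lines, the difference was −0.15 (SE 0.114, adjusted p = 0.399).

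For ZIP, 0 of 9 genes passed the interaction test in edgeR or in DESeq2, against 0.0565% of all genes (10 genes) in edgeR. At an unadjusted p under 0.05, only Irs1 passed among the 9 genes, with a difference of −0.30 (SE 0.115, adjusted p = 0.654). The fall of Irs1 in ZIP was thus not shown to be larger than that in Scr.

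When the lines were compared under cytokines, Igf1r and Akt2 kept the directions they had without cytokines. In OE+Cy against Scr+Cy, 2 of 9 genes were called (28.5% of all genes), Igf1r 34.1-fold higher (log2 fold change 5.09, SE 0.233, adjusted p = 7.25e-15) and Akt2 3.17-fold lower (−1.67, SE 0.0539, adjusted p = 1.46e-17). At the adjusted p, 7 of 9 passed, 3 higher and 4 lower (53.4% of all genes). Foxo3 was higher in OE+Cy (log2 fold change 0.46, SE 0.0899, adjusted p = 0.000144), and Pik3r1 was lower (−0.37, SE 0.0817, adjusted p = 0.000488). Irs2, 1.83-fold higher in OE without cytokines, was 1.18-fold higher with them (log2 fold change 0.24, SE 0.0874, adjusted p = 0.0263), with overlapping libraries. Its adjusted p rose above 0.05, to as much as 0.15, without Scr+Cy replicate 1, 2 or 3 or OE+Cy replicate 1 or 2. Insr remained lower (log2 fold change −0.22, adjusted p = 0.022), except that the adjusted p passed 0.05 without Scr+Cy replicate 1, OE+Cy replicate 1 or OE+Cy replicate 4, at up to 0.0889. Foxo1 was also lower (−0.22, adjusted p = 0.00872).

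In ZIP+Cy against Scr+Cy, 1 of 9 genes was called (15.8% of all genes) and 5 passed at the adjusted p, 1 higher and 4 lower (28.1% of all genes). Igf1r was 1.71-fold higher (log2 fold change 0.77, SE 0.217, adjusted p = 0.00922), with overlapping libraries, and its log2 fold change was 0.90 without ZIP replicate 1 and Scr+Cy replicate 1. Akt2 (−0.46, SE 0.0524, adjusted p = 2.07e-07) and Irs1 (−0.37, SE 0.0822, adjusted p = 0.00113) were lower, without overlap. Irs2 (−0.24, adjusted p = 0.0436) and Foxo3 (−0.25, adjusted p = 0.0448) were lower too, but 3 of 9 genes rather than 5 passed with the size factors of DESeq2. The adjusted p of Foxo3 rose above 0.05, to between 0.0567 and 0.143, without any 1 of the 8 libraries. That of Irs2 did so, to as much as 0.15, without Scr+Cy replicate 1, 2 or 4 or ZIP+Cy replicate 1, 3 or 4.

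The study also set both cytokine-treated lines against untreated Scr, a comparison in which line and cytokines change together. In ZIP+Cy, 2 of 9 genes were called (21.7% of all genes), Igf1r (log2 fold change 1.46, SE 0.225, adjusted p = 9.86e-06) and Irs1 (−0.69, SE 0.0817, adjusted p = 2.17e-07), and 5 passed at the adjusted p (40.8%). In OE+Cy, 2 were called (34.2%), Igf1r (5.78, SE 0.242, adjusted p = 6.61e-16) and Akt2 (−1.59, SE 0.0538, adjusted p = 1.38e-17), and 7 passed at the adjusted p (59.5%).

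The rest of the pathway was described with a list of 67 further genes by role, of which 65 were in the table (Igfbp1 and Irs4 were not) and 57 had a mean of at least 1 CPM. In OE, 18 of 65 were called (9 higher and 9 lower), or 27.7%, against 25.7% of all genes. In ZIP, 7 of 65 were called (6 higher and 1 lower), or 10.8%, against 14.9% of all genes. With cytokines, 6 were called in Scr, all higher (9.23%, against 10.6% of all genes), 7 in ZIP, 4 higher and 3 lower (10.8%, against 12.5%), and 13 in OE, 9 higher and 4 lower (20.0%, against 21%). These shares were near those of all genes. Without ZIP replicate 1 and Scr+Cy replicate 1, 8 were called in Scr with cytokines (4 higher and 4 lower), 7 in ZIP with cytokines and 7 in ZIP against Scr. The calls of Igfbp6, a binding protein, and Inpp5d, a lipid phosphatase, in Scr were lost. Scr+Cy replicate 1 held 78 and 26 of their reads and the other 3 Scr+Cy libraries at most 1 each. The median log2 fold change of the list was between −0.11 and 0.04 in these 5 comparisons.

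Among the binding proteins, which carry IGFs outside the cell and limit or extend their action, the largest changes in OE and ZIP against Scr were in Igfbp4. It was at 4.50 ± 0.299 CPM in Scr, 93.3 ± 11.3 CPM in OE (log2 fold change 4.37, SE 0.188, adjusted p = 2.1e-15) and 0.747 ± 0.285 CPM in ZIP (−2.59, SE 0.281, adjusted p = 1.07e-07). Igfbp4 thus moved in opposite directions in the 2 lines, in contrast to Igf1r and Akt2. Igfbp7, a related secreted protein, was higher in both, at 2.13 ± 0.302 CPM in Scr, 24.8 ± 1.80 CPM in OE (log2 fold change 3.54, adjusted p = 3.46e-15) and 4.88 ± 0.810 CPM in ZIP (1.19, adjusted p = 4.78e-06). Of the 6 binding proteins in the table, 2 were called in OE (33.3%, against 25.7% of all genes) and 2 in ZIP (33.3%, against 14.9%). Without ZIP replicate 1 and Scr+Cy replicate 1, 3 were called in ZIP, with Igfbp3 in addition. Of the 7 further adaptors, 2 were called in OE (28.6%, against 25.7% of all genes). They included Sh2b2, an adaptor of the insulin receptor, which fell from 3.32 ± 0.168 to 0.345 ± 0.241 CPM (log2 fold change −3.27, SE 0.273, adjusted p = 3.99e-10). Of 16 genes of the kinase and mTOR branch, 3 were called in OE (Gsk3a higher, Mtor and Tsc1 lower), or 18.8%, against 25.7% of all genes. In ZIP, 0 were called by edgeR at the same unadjusted p under 0.05, against 14.9% of all genes.

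Of 11 FOXO targets, 4 were called in OE without cytokines, 1 higher and 3 lower, against 25.7% of all genes. Cat, catalase, fell from 6.62 ± 1.39 to 0.227 ± 0.170 CPM (log2 fold change −4.88, SE 0.310, adjusted p = 2.66e-12). In ZIP, 2 targets were called (18.2%, against 14.9% of all genes), both higher. Pdk4 was called on 15 reads in ZIP replicate 1 and 0 in the other ZIP and Scr libraries, and not without that library and Scr+Cy replicate 1. Bcl6, a transcriptional repressor, rose from 0.946 ± 0.286 to 2.29 ± 0.306 CPM (1.28, SE 0.270, adjusted p = 0.000761). With cytokines, 4 FOXO targets were called in OE, all higher (Bcl6, Fbxo32, Cat and Sod2), against 21% of all genes, and 0 were called by this rule in the Scr and ZIP lines. Cat rose only to 0.665 ± 0.260 CPM in OE+Cy, far below its 6.4 ± 0.9 CPM in Scr+Cy. Sod2 is also known as a target of NF-κB.

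Of 11 brakes on the pathway, 3 were called with cytokines in Scr (10.6% of all genes), 2 in ZIP (12.5%) and 3 in OE (21%), all higher. Without ZIP replicate 1 and Scr+Cy replicate 1, 2 were called in Scr, where Inpp5d was lost, and 3 in ZIP, where Ddit4 was called lower. Socs1, which targets IRS proteins and JAK kinases, rose from 0.967 ± 0.315 to 13.4 ± 2.42 CPM in Scr (log2 fold change 3.77), from 0.931 ± 0.330 to 12.2 ± 3.60 CPM in ZIP (3.72) and from 0.725 ± 0.262 to 40.4 ± 6.71 CPM in OE (5.77). Pik3ip1, an inhibitor of PI3K, rose from 0.464 ± 0.105 to 6.15 ± 0.828 CPM in Scr (3.72), from 1.16 ± 0.490 to 9.42 ± 1.90 CPM in ZIP (3.02) and from 0.586 ± 0.111 to 17.2 ± 4.70 CPM in OE (4.87). The highest adjusted p of these 6 rises was 7.54e-10. Socs1 and Pik3ip1 thus rose in all 3 lines, but the brakes as a set did not. The median log2 fold change of the 11 brakes was −0.08 in Scr, −0.17 in ZIP and 0.01 in OE. Any link between these rises and the fall of Irs1 was not tested. Sgk1, a kinase related to AKT, fell with cytokines in ZIP (log2 fold change −0.93, adjusted p = 0.00394) and OE (−0.74, adjusted p = 0.0128). In Scr, Sgk1 was not called (−0.44, adjusted p = 0.209). Without ZIP replicate 1 and Scr+Cy replicate 1, it was called lower there too (−0.67, adjusted p = 0.0465). Of the ligands, Ins2 fell with cytokines in OE, from 18879 ± 938 to 10819 ± 1977 CPM (−0.80, SE 0.110, adjusted p = 1.82e-06), and less in ZIP (−0.39, adjusted p = 0.00951). Ins1 also fell in OE (−0.72, adjusted p = 0.000123). It was still higher in OE+Cy than in Scr+Cy, at 4661 ± 937.5 against 670.5 ± 109 CPM (2.80, SE 0.145, adjusted p = 7.11e-14). Without cytokines, this difference was larger (3.51). Igf2 was lower in OE than in Scr (−1.14, adjusted p = 1.51e-12). With cytokines, it fell in Scr (−0.25, adjusted p = 0.0114), ZIP (−0.56, adjusted p = 9.55e-07) and OE (−0.60, adjusted p = 1.6e-07).

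The genes with the pattern most like that of 8 of the 9 genes were found by Pearson's r of log2 CPM over the 24 libraries, among 12669 genes. The libraries fall into groups that differ in level, so r mostly reflects group differences and is given as a description. For Igf1r, the closest were Rffl (r = 0.987) and Ildr1 (0.984), and for Akt2, Kank2 (0.99) and Col16a1 (0.988). For the adaptors, they were Zzz3 (0.95) and St8sia1 (0.942) for Irs1, and Fam167a (0.952) and Lgalsl (0.943) for Irs2. The closest r was lower for Akt1 (Nup188, 0.928), Foxo1 (Cnnm3, 0.912), Foxo3 (Kansl1, 0.911) and Pik3r1 (Dcaf10 and Ube4a, both 0.876), whose levels differed less between groups.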

How the data were processed

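Bulk RNA-seq of 24 libraries was analyzed. According to the study's methods, the authors prepared libraries from purified mRNA, aligned the reads to mm10 with STAR, assigned them to RefSeq Transcripts 96 in Partek Flow and dropped genes that had under 10 reads over all libraries. The submitters' processing notes list STAR 2.7.8a and Partek 11.0.24.0204. The quantification method and its use of strand are not given in the sources used here, so reads of overlapping genes could be divided: the RNA 9530052E02Rik, on the opposite strand of Irs2, had a mean of 0.0776 CPM. The authors deposited estimated counts per gene, of which 30.3% were not whole, and a normalized signal, which equaled the counts divided by 1 factor per library and was not used in tests.

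Counts were rounded, scaled by TMM and fitted in edgeR 4.0.16 (R 4.3.3; glmQLFit and glmQLFTest) as 6 group means over all 24 libraries and 17696 genes, with Benjamini-Hochberg adjustment over all genes. The standard error is the log2 fold change divided by the square root of F. CPM are TMM scaled, and exon lengths came from GENCODE M21. The 9 genes were always named. Of the pathway list, the 2 largest rises and falls in a comparison were named (fold change of at least 1.5, adjusted p under 0.05, at least 1 CPM on average in 1 of the groups, no overlap), and other genes were named after their values were seen. The genes, lists and rules were chosen with earlier results of these data known. Alternatives were DESeq2 1.42.0, other scalings, a filter, fewer groups, a replicate block and leaving out libraries. The fits were tested on simulated data. A marker sum and the genes most like Insr are not reported here.

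The replicate numbers are shared by the labels, which do not explain them. The check of deviations from group means over 12670 genes found every correlation over 0.1 for 7 of 15 combinations of groups, including Scr and Scr+Cy (0.413 to 0.626), ZIP and ZIP+Cy (0.261 to 0.397), OE and OE+Cy (0.162 to 0.455), Scr and ZIP (0.141 to 0.634) and Scr+Cy and ZIP+Cy (0.191 to 0.37). Within groups, no pair of libraries agreed within sampling noise.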

Additional observations from a re-analysis of the deposited data

Results flagged for a closer look

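In 54 sets of 4 libraries (9 genes in 6 groups), 2 had a library far from the other 3 by Dixon's test; chance flags about 1 in 20 sets. Igf1r was at 371.5 CPM in OE replicate 4, against 446 to 455 CPM in the other OE libraries, and still far above every Scr library. Akt2 was at 93.6 CPM in OE replicate 2, against 90.1 to 90.3 CPM in the others, a gap that is small beside the difference from Scr.

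The cytokine response differed between the OE and Scr lines for 4 genes by the interaction test: Irs2 (difference of log2 fold changes −0.63), Pik3r1 (−0.49), Akt1 (0.26) and Foxo3 (0.46). For Irs2, the level in OE was 1.83-fold above Scr before the treatment and 1.18-fold above it after. For Pik3r1, Akt1 and Foxo3, the means of Scr+Cy and Scr differed by log2 fold changes of −0.08, −0.02 and 0.02. OE is a different clone in a different vector, and their part in these differences cannot be told apart from that of the microRNA.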

How the results depend on the processing

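Of the 99 log2 fold changes of the 9 genes, library totals in place of TMM turned those of Foxo3 in Scr+Cy (−0.02, in place of 0.02) and Insr in OE+Cy against OE (0.05, in place of −0.01), neither of which had passed the test, and moved none by more than 0.09. With this scaling, the differences of response between OE and Scr also passed for Insr (0.32) and Akt2 (0.20). In ZIP+Cy against Scr+Cy, 3 in place of 5 of the 9 genes passed at the adjusted p with the size factors of DESeq2. The interaction of ZIP with cytokines gave 41 genes with DESeq2 and 45 with the replicate block, in place of 10 over all genes, and 0 of the 9 genes with each. The pairing of libraries by replicate number held for the cytokine comparisons within lines and for ZIP against Scr with and without cytokines. The block made no call of the 9 genes in these comparisons differ other than those given beside Irs2 in Scr+Cy and Igf1r in the interaction of OE. Among the comparisons whose libraries were not paired, it took only Akt1 in OE+Cy against Scr past the adjusted p (0.0409, in place of 0.0555).

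When each library was left out in turn, the number of the 9 genes called ranged from 0 to 1 in Scr+Cy against Scr, from 0 to 1 in ZIP+Cy against ZIP and from 1 to 2 in OE+Cy against OE. The number that passed at the adjusted p ranged from 1 to 3 in Scr+Cy against Scr (1 without Scr replicate 3, Scr replicate 4 or Scr+Cy replicate 2) and from 3 to 4 in ZIP+Cy against Scr+Cy (3 without Scr+Cy replicate 1, 2 or 4 or ZIP+Cy replicate 1, 3 or 4). Log2 fold changes that changed sign were all near 0 and had not passed: those of Foxo1 (−0.02 to 0.11) and Foxo3 (−0.07 to 0.05) in ZIP against Scr, Foxo3 in Scr+Cy against Scr (−0.01 to 0.05), Pik3r1 in ZIP+Cy against ZIP (−0.09 to 0.05) and against Scr+Cy (−0.07 to 0.03), Insr (−0.09 to 0.04) and Igf1r (−0.20 to 0.05) in OE+Cy against OE, and the difference of response of Akt2 between ZIP and Scr (−0.01 to 0.07). Foxo3 in OE against Scr (−0.05 to 0.09) and Irs2 in OE+Cy against Scr (−0.09 to 0.09), at 0 with all libraries, also lay on both sides of 0. Leaving out both ZIP replicate 1 and Scr+Cy replicate 1, an alternative chosen after seeing the data, gave 0 called genes in Scr+Cy against Scr (Igf1r at 0.55, in place of 0.69), 3 genes at the adjusted p in ZIP+Cy against Scr+Cy, and sign changes of Foxo3 in Scr+Cy (−0.02) and of Pik3r1 in ZIP+Cy against ZIP (0.05) and against Scr+Cy (0.04). The cause of these changes was not tested. The filter on low counts, the fit of only the groups compared and the adjusted p in the call rule turned no direction and changed no count of the 9 genes by over 1.5 times. Depth limits Igf1r outside OE most, where libraries held as few as 176 of its reads.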
